A study of Homo sapiens with 8 samples.

Results

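The response to mesoderm induction on a stiff gel is described here for H9, a widely used line of human embryonic stem cells. It was read from 2 of the 4 groups of an RNA sequencing study. The groups were undifferentiated cells on a gel of 60 kPa (day 0) and cells on the same stiffness that had been induced to mesoderm (day 3.5), which the labels call multipotent mesoderm progenitors. Each group holds 2 libraries, so 4 of the 8 libraries are concerned; the other 4 come from a soft gel of 400 Pa at the same days. All cells grew in feeder-conditioned medium, and induction was with bFGF and Activin together with VEGF and BMP4. Total RNA was recovered with TRIzol. All groups derive from 1 cell line, and whether a group's libraries are separate cultures is not stated in the labels.

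The deposited tables give, for each gene and group, 1 value in FPKM, that is fragment counts scaled by transcript length and by sequencing depth. Of 25607 gene symbols with a row of their own in both tables, 14893 had an FPKM of at least 1 on either day on 60 kPa and were compared. The change is log2((FPKM at day 3.5 + 1)/(FPKM at day 0 + 1)), which understates the change of low genes. A gene is said to have risen or fallen where this change reached a size of 1. The tables of the 2 days were made separately and hold no value per library, so no change between the days was tested and read depth is unknown. In RNA from a whole dish, more cells of a type and more RNA per cell cannot be told apart.

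As background, BMP4 and Activin, with WNT ligands made by the cells themselves, drive pluripotent cells through a state like the primitive streak, which is marked by the T-box factors T (brachyury) and EOMES and by the homeobox factor MIXL1. Stronger BMP signalling then favours lateral and extraembryonic mesoderm, marked by HAND1 and ISL1, while epiblast-like cells shielded from BMP, Nodal and WNT move towards anterior neuroectoderm. The pluripotent state itself rests on the factors POU5F1, NANOG and SOX2, of which POU5F1 and SOX2 can bind side by side to an octamer and a SOX site.

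The promoters of 5 genes whose levels are described below are shown first, from 250 bases before the start to 50 after it, as RefSeq gives them on GRCh38.p14. NANOG lies at chr12:7789152-7789451 on the plus strand, SOX2 at chr3:181711675-181711974 (plus), MIXL1 at chr1:226223414-226223713 (plus), SP5 at chr2:170715087-170715386 (plus) and HAND1 at chr5:154478178-154478477 (minus). They are shown because NANOG and SOX2 parted ways during induction while MIXL1, SP5 and HAND1 appeared. Many more streak and lateral mesoderm genes appeared, and their promoters are not shown. Capitals mark the motifs found on either strand: the octamer ATGCAAA and the SOX site CATTGT in NANOG, the octamer and the T-box site TCACACC in SOX2, and the TCF site ATCAAAG in the other 3.
NANOG: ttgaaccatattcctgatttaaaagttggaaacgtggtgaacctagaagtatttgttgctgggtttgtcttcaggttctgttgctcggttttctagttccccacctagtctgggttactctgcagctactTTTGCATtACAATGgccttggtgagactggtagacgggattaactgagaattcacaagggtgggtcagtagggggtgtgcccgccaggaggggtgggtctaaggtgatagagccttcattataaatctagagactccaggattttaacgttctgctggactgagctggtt
SOX2: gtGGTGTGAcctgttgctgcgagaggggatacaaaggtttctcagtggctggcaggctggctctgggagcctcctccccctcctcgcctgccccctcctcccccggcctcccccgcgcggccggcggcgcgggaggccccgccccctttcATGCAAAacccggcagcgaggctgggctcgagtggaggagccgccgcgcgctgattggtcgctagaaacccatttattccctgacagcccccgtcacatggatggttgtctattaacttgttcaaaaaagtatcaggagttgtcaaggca
MIXL1: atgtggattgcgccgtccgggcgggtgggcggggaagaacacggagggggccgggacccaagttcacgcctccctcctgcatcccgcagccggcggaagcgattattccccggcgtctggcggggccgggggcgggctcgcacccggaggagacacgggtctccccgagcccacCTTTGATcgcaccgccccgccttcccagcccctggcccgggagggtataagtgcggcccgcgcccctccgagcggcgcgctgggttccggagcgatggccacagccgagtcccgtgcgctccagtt
SP5: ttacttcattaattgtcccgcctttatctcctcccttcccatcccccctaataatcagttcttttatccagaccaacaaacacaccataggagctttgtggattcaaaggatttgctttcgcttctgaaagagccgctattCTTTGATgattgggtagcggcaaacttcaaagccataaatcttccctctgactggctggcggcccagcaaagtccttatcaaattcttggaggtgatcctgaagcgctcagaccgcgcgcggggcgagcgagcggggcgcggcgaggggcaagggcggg
HAND1: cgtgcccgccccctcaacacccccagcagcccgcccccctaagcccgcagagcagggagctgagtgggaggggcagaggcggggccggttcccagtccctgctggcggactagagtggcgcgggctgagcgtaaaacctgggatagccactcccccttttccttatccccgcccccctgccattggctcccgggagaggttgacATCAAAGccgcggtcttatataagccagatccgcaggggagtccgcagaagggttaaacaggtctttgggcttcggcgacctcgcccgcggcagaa
In NANOG the octamer begins at position -120, counting the base before the start as -1, on the opposite strand, with 1 base between it and the SOX site. This arrangement was found in 3 of 27305 promoters (0.011%). The SOX2 promoter holds an octamer at position -100 and no SOX site with these letters. Over the 27305 promoters searched, 4.51% held the octamer, 11.0% the SOX site, 3.43% the T-box site, 2.64% the TCF site and 5.96% the SMAD site TGGCGCC. None of these motifs contains another. Among protein-coding genes with a promoter searched, the TCF site stood in 12 of 533 that rose, 4 of 293 that fell and 119 of 8892 compared (2.25%, 1.37% and 1.34%). The SMAD site stood in 47, 17 and 844 of them (8.82%, 5.80% and 9.49%). Of the primitive streak list, 2 of 11 promoters held the TCF site, those of MIXL1 and SP5. Of the lateral and extraembryonic mesoderm list 1 of 9 did, that of HAND1. The 3 promoters shown with a TCF site are thus the carriers in these lists and do not stand for their other members. A match is a run of letters and not a bound site.

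More genes rose than fell on 60 kPa, in FPKM as deposited. Of the 14893 genes compared, 1019 rose (6.84%) and 645 fell (4.33%), and the median change was 0.0001. List counts given below are to be read beside these 2 shares. A size of 2 or more was reached by 211 genes upward and 109 downward. Among protein-coding genes, 707 rose and 367 fell, 68 went from below 1 FPKM to at least 5, and 14 went the opposite way. Small RNA genes made up 53 of the rises and 50 of the falls, and a further 141 and 69 were coding genes that hold a small RNA gene. The share of small RNA genes among all genes compared was not computed. The annotation did not match 201 of the symbols that rose and 177 of those that fell. Of the 10758 coding genes compared, 8632 hold no small RNA gene. A similar share holds none among the risen (566 of 707) and the fallen (298 of 367). Restricted to the 8632 coding genes that hold none, 566 rose (6.56%) and 298 fell (3.45%). At the edge, WSB1 went from 53.8 to 109 FPKM and counted as risen, while BTBD17 at 0.9999 did not. The 10 highest genes held 50.5% of the summed FPKM at day 0 and 56.6% at day 3.5. When each group was instead rescaled to the same sum, changes shifted downward, with a median of -0.23, and 447 rose and 884 fell; unless said otherwise, directions named below are those on FPKM as deposited.

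**Figure D1:**
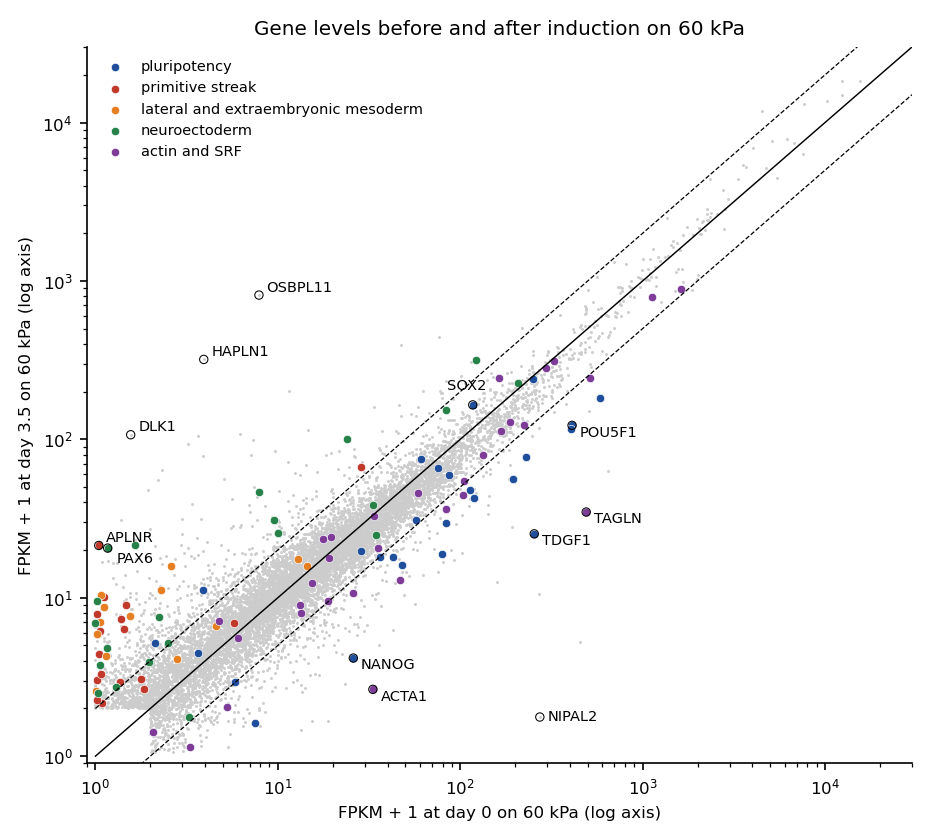
FPKM + 1 at day 0 (horizontal) and day 3.5 (vertical) on 60 kPa for the protein-coding genes compared, both on log axes; each point is 1 gene, the solid line marks no change and the dashed lines a change of 1 in either direction. HAPLN1, OSBPL11 and DLK1 lie far above the lines, TAGLN, TDGF1 and NIPAL2 far below, and streak and lateral mesoderm genes stand at the left edge.

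The largest rises were in genes of the extracellular matrix, growth control and WNT secretion. HAPLN1, a link protein that ties hyaluronan to proteoglycans, went from 2.93 to 319 FPKM (change 6.35; hg19 chr5:82933056-83017432). OSBPL11, a lipid transfer protein, went from 6.88 to 814 (6.69; hg19 chr3:125247088-125314329). DLK1, an imprinted transmembrane protein related to Notch ligands, went from 0.561 to 106 (6.10; hg19 chr14:101192042-101201632). All 3 lay under 10 FPKM on the stiff gel before induction and above 100 after it. WLS, the carrier that brings WNT proteins to the cell surface, went from 1.32 to 62.6, and FLRT3, an adhesion protein that binds FGF receptors and unc-5 receptors, from 0.932 to 46.7. PRTG (protogenin) went from 2.64 to 103, GREB1L from 1.21 to 54.1, LIX1 from 0.378 to 29.8 and PAMR1 from 2.88 to 78.0. The antisense RNA FEZF1-AS1 went from 5.37 to 119 FPKM. HAPLN1, WLS and GREB1L hold a small RNA gene in the annotation, as do SLC16A3, ZEB2, H19, MEG3, FZD3, BMPR1A, CDH1, EPCAM, HNF4A, JAG1, LIN28B, SFRP1, SPRY4 and TCF7L1 below. Part of their FPKM may belong to it; this was not tested.

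The largest falls included genes of actin contraction, tryptophan breakdown and pluripotency. TAGLN, the smooth muscle protein transgelin, went from 489.6 to 33.8 FPKM (change -3.82; hg19 chr11:117069922-117103241), and IDO1, the enzyme that opens tryptophan breakdown, from 158 to 11.5 (-3.66). ACTA1, skeletal muscle alpha-actin, went from 32.2 to 1.64 (-3.65). AFP, a yolk sac and fetal liver protein, went from 14.4 to 0.660 (-3.21), and the neurotrophin receptor NTRK3 from 22.2 to 1.85 (-3.03). TM4SF18 went from 17.8 to 0.678 and GCNT4 from 12.4 to 0.469. At day 0 TAGLN, ACTA1 and GCNT4 were already higher on 60 kPa than on 400 Pa (q = 0.039 for each in the authors' deposited table). On 400 Pa TAGLN fell from 195 to 46.7 FPKM, ACTA1 from 11.4 to 0.441 and GCNT4 from 4.06 to 0.875. NIPAL2 (272 to 0.766), TSTD3 (455 to 4.22) and VWA8 (268 to 9.62) had the largest falls but hold a small RNA gene, and none of them fell on 400 Pa. SSRP1, part of the FACT complex that handles histones, went from 642 to 62.4 FPKM on 60 kPa against 69.3 to 65.6 on 400 Pa, so its fall rests on a high value in the stiff group at day 0. Left aside were 9 small RNA genes or pseudogenes with rises as large as these 12, and 17 with falls as large, besides 6 and 5 symbols that the annotation did not match.

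Pluripotency genes mostly fell, but not all of them did. Of 32 listed genes 26 were compared; 15 fell and 2 rose, against 4.33% and 6.84% of all genes, and their median change was -1.24 (-0.99 over the 30 in both tables). POU5F1 (hg19 chr6:31126158-31148508) changed by -1.74 and NANOG (hg19 chr12:7940390-7948953) by -2.64. TDGF1, the Nodal co-receptor CRIPTO, had the largest fall, from 254 to 24.3 FPKM (-3.33). DPPA4 went from 579.8 to 181 FPKM (-1.68), DNMT3B, a de novo DNA methyltransferase, from 402 to 116 (-1.79) and the long noncoding RNA ESRG from 78.3 to 17.9 (-2.07). FOXD3 went from 6.49 to 0.627 (-2.20); RP4-792G4.2, a transcript at the same locus, went from 511 to 26.9, and reads of the pair cannot be told apart without strand. SOX2 did not follow: it stood at 116 FPKM at day 0 and 164 at day 3.5 (0.49). LIN28A, an RNA-binding protein that blocks let-7 maturation, was at 249 and 239 (-0.06), LIN28B at 74.8 and 64.8, and SALL4 at 60.1 and 73.8. The 2 that rose were ZFP42 (REX1), from 2.90 to 10.2, and KLF5, from 1.11 to 4.21. POU5F1 was still at 122 FPKM at day 3.5, above every listed streak and lateral mesoderm gene.

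Genes of the primitive streak appeared from near absence. Of 22 listed 17 were compared, and 13 rose and none fell, with a median change of 1.61 (1.55 over the 19 in both tables); among the 17, the median level went from 0.113 to 5.15 FPKM. Because most of them lay below 1 FPKM at day 0, those compared had to be higher at day 3.5. T went from 0.0626 to 5.15 FPKM (change 2.53) and EOMES from 0.0479 to 3.44 (2.08). MIXL1, whose promoter is shown above, changed by 2.42 (hg19 chr1:226411319-226415135). SP5, a zinc finger factor that answers WNT, went from 0.0223 to 6.89 (2.95). APLNR, the apelin receptor of migrating mesoderm, had the largest change, from 0.0429 to 20.4 (4.36), and WNT8A went from 0.113 to 9.10 (3.18). MESP1, a factor of cardiac mesoderm, went from 0.468 to 8.03 (2.62). The presomitic factor MSGN1 reached 2.01 FPKM and CDX1 1.27. The streak inducer NODAL was at 4.73 and 5.94, and WNT3 at 0.851 and 1.65, so neither rose. CYP26A1, which breaks down retinoic acid, was the highest streak gene on both days, at 27.6 and 66.2 FPKM.

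Factors of lateral and extraembryonic mesoderm rose on 60 kPa to modest levels. Of 29 listed genes 25 were in both tables, 13 were compared, 9 rose and none fell; the median change was 2.29 over the 13 and 0.54 over the 25. As 7 of the 13 lay below 1 FPKM at day 0, those could only be higher at day 3.5. This also holds for 8 of 15 BMP targets, 8 of 14 amnion and trophoblast genes and 9 of 21 neuroectoderm genes described below. The same is true of every compared gene of the other lists that lay below 1 FPKM at day 0. ISL1, a factor of the heart field, went from 0.0765 to 9.44 FPKM (change 3.28), MEIS1 from 0.110 to 7.75 (2.98) and HAND1 from 0.0646 to 6.07 (2.73; hg19 chr5:153851315-153857921). TBX3, a T-box factor of heart and limb, went from 0.0246 to 4.90 (2.52). None of the 13 passed 17 FPKM at day 3.5, where the highest was MEIS3 at 16.6. HAND2 (0.696 FPKM), PRRX1 (0.726), GATA4 (0.884) and TWIST1 (0.362) stayed below 1. KDR, the VEGF receptor used to sort mesoderm progenitors, was at 13.5 and 14.8 FPKM (0.12). Of 26 genes of paraxial and intermediate mesoderm 10 were compared and 6 rose, among them FOXC1, a forkhead factor of somitic mesoderm (0.0393 to 8.39), and EYA1 (0.415 to 10.7). Mesoderm markers were thus present at day 3.5, with the paraxial factor TBX6 at 1.94 and MEOX1, PAX3 and WT1 below 1 FPKM.

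**Figure D2:**
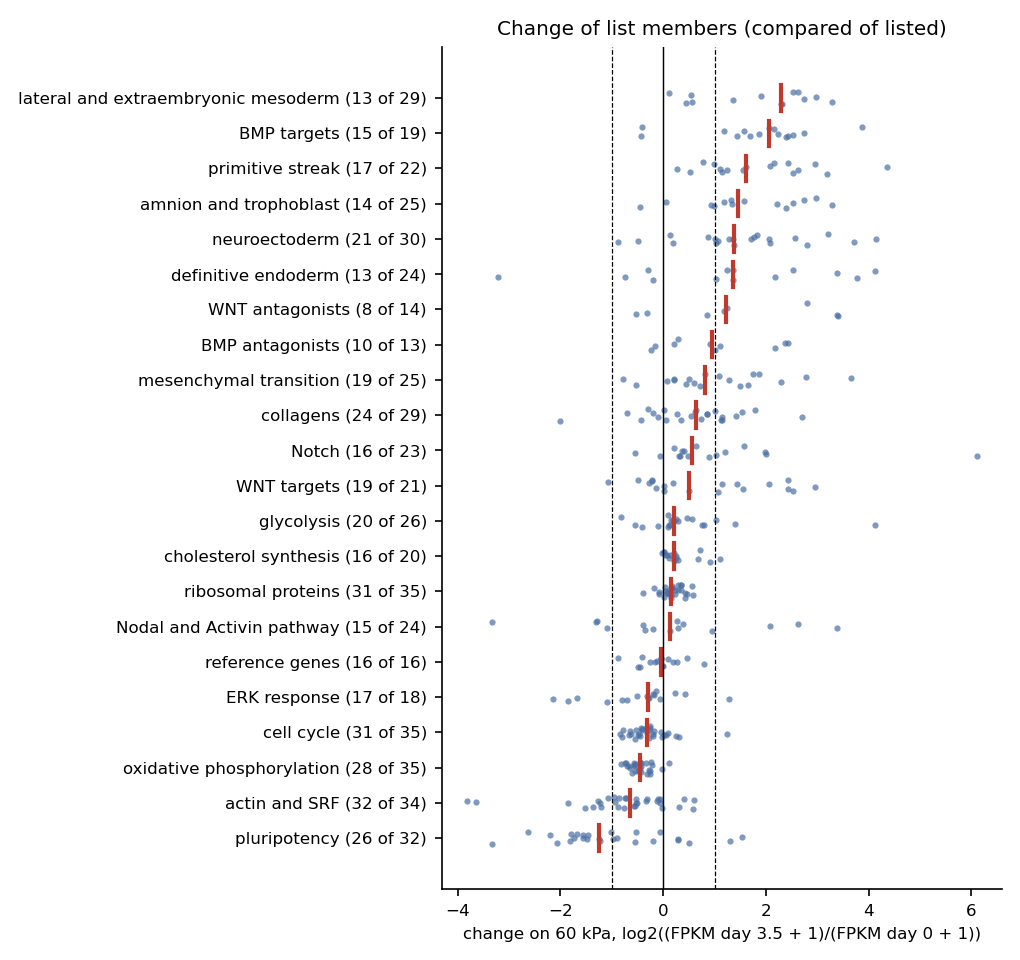
Change on 60 kPa for the members compared in 22 of the 42 gene lists; each point is 1 gene, the red bar is the list's median, the dashed lines mark a size of 1, and the numbers give members compared of those listed. Mesoderm, BMP target and neuroectoderm lists lie mostly to the right of 1, and the pluripotency list to the left.

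Most BMP targets rose, as did several secreted antagonists, and of 11 ligands and receptors compared 2 rose. Of 19 listed BMP targets 15 were compared, 13 rose and none fell (median 2.05, or 1.86 over the 17 in both tables). ID2 and ID3, inhibitors of helix-loop-helix factors, went from 32.9 to 158 FPKM (2.23) and from 61.2 to 201 (1.70), while ID1 was at 207 and 156 (-0.40). MSX2 went from 0.174 to 16.2 (3.87), DLX5 from 0.0537 to 4.69, and the pseudoreceptor BAMBI from 12.3 to 35.2 (1.44). SMAD6, an inhibitory SMAD, went from 1.45 to 7.90, whereas SMAD7 was at 11.3 and 8.13. BMP4 itself went from 3.69 to 11.99 FPKM (1.47) and BMP5 from 0.110 to 2.62. The receptor BMPR1A was at 53.8 and 43.5 and the effector SMAD1 at 21.3 and 14.1. Of 13 BMP antagonists 5 of the 10 compared rose, with FST (follistatin, which binds Activin above all) from 12.2 to 58.2 (2.17), GREM1 from 0.997 to 9.71, BMPER from 0.525 to 6.88 and NOG from 0.0944 to 1.34. GREM1, BMPER, NOG and SOSTDC1, which also rose, lay below 1 FPKM at day 0 and could only be higher at day 3.5.

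The Nodal and Activin list was divided, with 3 of 15 members compared risen and 4 fallen (24 listed, median 0.14, or -0.14 after rescaling). CER1, a secreted inhibitor of Nodal, BMP and WNT, went from 1.98 to 30.2 FPKM (3.39). SKIL, which restrains SMAD proteins, went from 76.8 to 31.0 (-1.28), the Nodal effector FOXH1 from 9.38 to 3.20 (-1.31) and GDF3 from 3.84 to 1.28 (-1.09). LEFTY1 and LEFTY2 share a row with other genes, which stood at 128 FPKM at day 0 and 18.6 at day 3.5. FGF genes were divided too: of 11 ligands and receptors compared 2 rose (FGF8 and FGF10) and 2 fell (FGF2 and FGF1). FGF2 went from 17.4 to 5.09 FPKM (-1.60), DUSP6, a phosphatase induced by ERK, from 88.0 to 19.01 (-2.15), ETV4 from 22.3 to 5.48 (-1.85) and SPRY4 from 16.9 to 4.60 (-1.68). Of 17 ERK response genes compared, 4 fell and DUSP4, also a phosphatase, rose (0.860 to 3.49), with a median of -0.29. Over all genes compared, 4.33% fell and 6.84% rose. The feedback inhibitors SPRY1, SPRY2 and SPRED1 changed by less than 1. The receptor FGFR1 was at 185 and 204, and FGF8, a streak ligand, went from 0.0776 to 2.28. Among VEGF genes, none of 8 compared rose, and FLT1, the decoy receptor, went from 33.2 to 8.87 (-1.79).

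Some WNT ligands, receptors and antagonists rose and most listed ligands stayed low. Of 19 ligands 16 were in both tables, 11 of them below 1 FPKM on both days, 5 were compared and 3 rose, namely WNT8A, WNT5B (0.907 to 5.37) and WNT5A (2.70 to 8.03). All those compared but WNT5A lay below 1 FPKM at day 0, so they could only be higher at day 3.5. Of 17 receptors and R-spondin genes compared 6 rose, including FZD5 (25.4 to 76.9, change 1.56), FZD3 (35.4 to 84.4, 1.23) and FZD2 (8.75 to 19.5, 1.07); the median was 0.28, and after rescaling to the same sum 1 of the 17 rose. Of 14 antagonists 8 were compared and 5 rose, with a median of 1.22 over the 8 and 0.27 over the 14. DKK1, which blocks the LRP co-receptors, went from 0.252 to 12.3 FPKM (3.41), FRZB, a soluble frizzled-like protein, from 0.548 to 9.71 (2.79), and the lipase NOTUM from 0.141 to 1.69. DKK1, FRZB and NOTUM, too, could only be higher at day 3.5 once compared. SFRP1 was at 65.8 FPKM before induction and 52.5 after it, and SFRP2 at 44.6 and 30.5. The WNT targets divided: 9 of 19 rose, with LEF1 going from 0.574 to 7.45 (2.43) and TNFRSF19 from 0.585 to 7.52, but AXIN2, a general target, was at 10.3 and 7.05 (-0.49). TCF7L1, a repressive TCF factor, fell from 5.80 to 2.22 (-1.08).
Among 16 Notch genes compared 6 rose and none fell. HES1, a Notch effector, went from 6.73 to 30.0 FPKM (2.01), the ligand DLL1 from 0.446 to 4.68 and JAG1 from 5.68 to 12.6.

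Markers of anterior neuroectoderm rose together with the mesoderm markers. Of 30 listed genes 21 were compared, 16 rose and none fell, with a median change of 1.38 (1.07 over the 27 in both tables). The summed level of the 27 went from 530 to 1034 FPKM. Its largest parts on both days were CRABP1 (206 to 226 FPKM, change 0.14) and CRABP2 (121 to 315, change 1.38). On the soft gel CRABP1 went from 187 to 93.7 FPKM, while CRABP2 also rose there, from 149 to 438 (1.55). PAX6, an eye and forebrain factor, went from 0.167 to 19.6 FPKM (4.14; its hg19 locus, chr11:31531297-32127301, also covers ELP4 and RCN1). LHX5 went from 0.640 to 20.6 (3.72) and SIX3 from 0.0256 to 8.52 (3.21). HESX1, a repressor of the anterior neural plate and pituitary, went from 6.86 to 45.3 (2.56), FEZF1 from 22.9 to 99.4 (2.07) and RAX, the retinal factor, from 0.150 to 3.81. OTX2, already at 82.2 FPKM at day 0, reached 152 (0.87). The neural plate factor SOX1 was at 0 and 0.0267, the midbrain-hindbrain factor GBX2 at 0.620 and 0.565 and SOX3 at 2.28 and 0.768. Noncoding transcripts at these loci moved with them: RP11-82C23.2 beside LHX5 went from 1.15 to 108 FPKM and RP11-89K21.1 beside SIX3 from 0.405 to 26.8, and their reads may not be separable from those of the neighbours. The part that such cells play in the values of other lists was not tested.

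Other cell types were checked by the same lists. Of 25 amnion and trophoblast genes 14 were compared and 10 rose, with TFAP2A going from 0.465 to 8.83 FPKM, VTCN1 from 0.0732 to 7.44, GABRP from 1.503 to 10.6 and GATA3 from 0.0190 to 4.33. The list's summed level went from 37.5 to 96.7 FPKM, while CGA reached 1.03 and GCM1 stayed below 1. CDX2 is held by the day 3.5 table alone, at 1.74 FPKM. Of 24 endoderm genes 13 were compared, 9 rose and AFP fell. SHISA2, an inhibitor of FGF and WNT receptors, went from 10.5 to 200.2 FPKM (4.13) and the ephrin receptor EPHA4 from 6.27 to 97.6 (3.76). The defining endoderm factors were nearly absent, with FOXA2 at 0.0814 FPKM, HNF4A at 0.0518 and SOX17 at 0.380 at day 3.5. Of 14 neural crest genes 10 were compared, 7 rose and 2 fell; SOX10 was at 1.14 and PAX3 at 0.676 FPKM. Of 25 genes of blood and endothelium 10 were compared, 2 rose and 2 fell. TAL1 (0.133 FPKM), CDH5 (0.256) and CD34 (0.293) were below 1 at day 3.5, although VWF, which holds a small RNA gene, went from 0.0627 to 6.12. Among fibroblast markers LUM and DCN reached 4.69 and 3.79, and THY1, also borne by pluripotent cells, fell from 191 to 26.8 (-2.78).

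**Figure D3:**
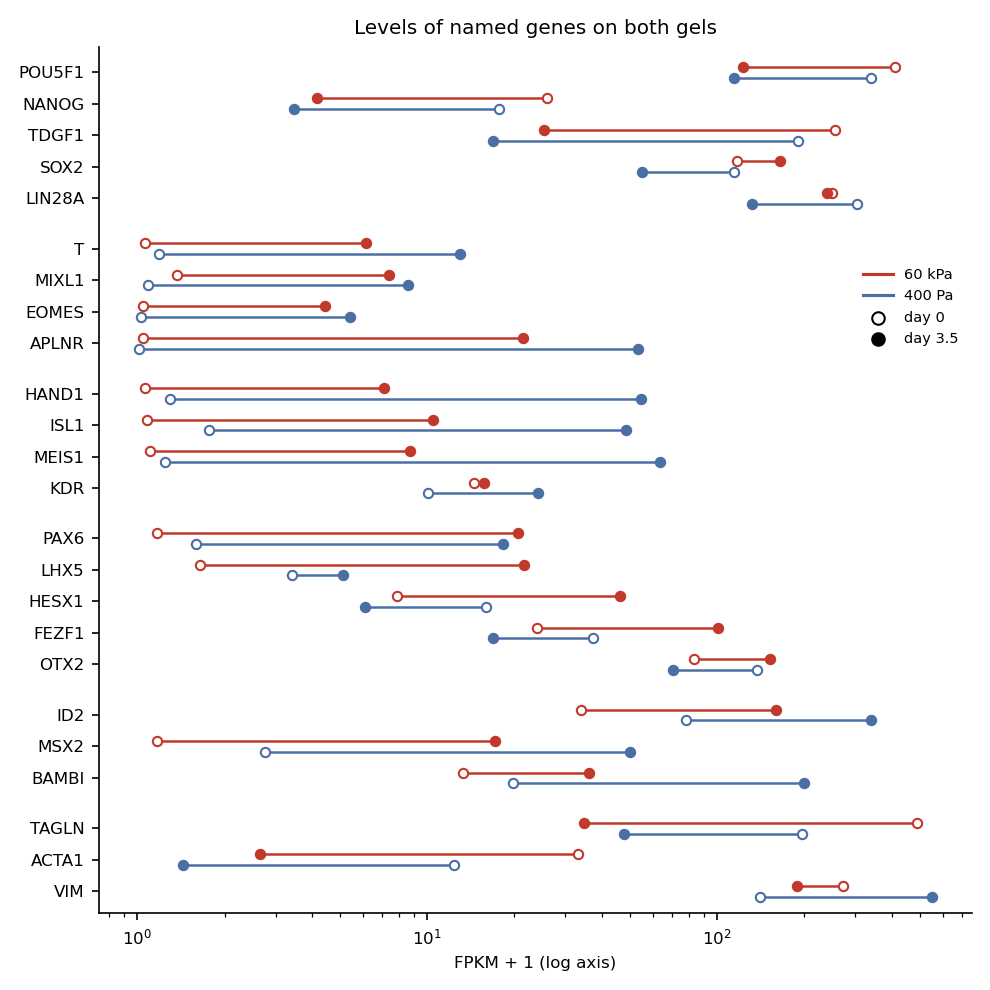
FPKM + 1 on a log axis for 24 genes on both gels; open circles are day 0, filled circles day 3.5, red is 60 kPa and blue 400 Pa, and each circle is 1 group value. On 60 kPa SOX2, HESX1, FEZF1 and OTX2 moved to higher values where on 400 Pa they moved to lower ones, and HAND1, ISL1 and MEIS1 ended lower on 60 kPa than on 400 Pa.

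Several repressors of the epithelial state and mesenchymal cadherins rose, while E-cadherin did not fall. Of 25 mesenchymal transition genes 19 were compared, 9 rose and none fell (median 0.81). ZEB2, a repressor of E-cadherin, went from 0.315 to 15.7 FPKM (3.66), ZEB1 from 0.203 to 3.38 and SNAI2 from 0.223 to 2.85. The cadherins CDH6 and CDH11 went from 6.37 to 49.3 (2.77) and from 6.08 to 33.6 (2.29). CDH2, N-cadherin, was at 26.4 and 47.0 (0.81) and VIM, vimentin, at 270.2 and 187 (-0.53). Of 26 epithelial genes compared 4 rose and 2 fell, against 6.84% and 4.33% of all genes compared. CDH1, E-cadherin, was at 124 and 167 FPKM (0.43), CLDN4 went from 6.71 to 42.5 (2.50), and EPCAM fell from 184 to 84.9 (-1.10). Among 24 collagen genes compared 8 rose, with COL2A1 from 0.556 to 9.18 (2.71), COL4A6 from 8.31 to 31.2 and COL1A2 from 7.75 to 24.2, and COL12A1 fell from 6.84 to 0.942. Of 29 other matrix genes compared 8 rose and GPC4 fell. GPC3, a glypican that binds growth factors, went from 13.6 to 113 (2.96) and GPC4 from 93.6 to 28.2 (-1.69). TNC, tenascin C, went from 1.27 to 10.8. Of 13 integrins compared 1 rose, near the 6.84% of all genes compared. It was ITGA5, the fibronectin receptor chain (5.93 to 15.9).

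Of 34 listed genes of contractile actin, many of them targets of serum response factor (SRF), 32 were compared, 9 fell and none rose. Of the 32, 28 lay below 0 and 4 above it (median -0.65). Besides TAGLN and ACTA1, MYL9, the regulatory myosin light chain, went from 45.5 to 11.9 FPKM (-1.85), CNN1 from 24.9 to 9.72 (-1.27), VCL, vinculin, from 102 to 43.3 (-1.22), CALD1 from 82.7 to 35.1 (-1.21) and TPM1 from 516 to 243 (-1.08). ACTB was at 1624 and 884 (-0.88). Of 26 genes of the YAP and TAZ list 6 rose and 2 fell, against 6.84% and 4.33% of all genes compared. The classical target CTGF fell from 19.8 to 3.58 FPKM (-2.18) and CYR61 was at 7.08 and 3.71 (-0.78), while ANKRD1, also a target, rose from 0.419 to 5.65 (2.23) and FJX1 from 3.91 to 20.6. YAP1 itself was at 18.7 and 23.1.

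HOX genes were hardly present on the stiff gel. Of 37 HOX and CDX genes listed 8 were in both tables and 2 were compared; CDX1 reached 1.27 FPKM and CDX4 was at 1.46 and 1.33. Rows held by the day 3.5 table alone gave HOXB9 at 0.395 and HOXA13 at 0.162 FPKM on 60 kPa. Among 15 imprinted genes compared 5 rose, with DLK1, MEG3 (0.210 to 4.03), H19 (0.378 to 6.47) and CDKN1C (4.77 to 12.7), and GRB10 fell (24.7 to 11.8). DLK1 and MEG3 lie in the same imprinted cluster. IGF binding proteins rose in 3 cases of 12 genes compared: IGFBP5 went from 0.290 to 11.1 (3.23), IGFBP7 from 4.15 to 13.4 and IGFBP3 from 3.32 to 9.94. TET2, an enzyme that oxidises methylcytosine, went from 1.72 to 5.65 (1.29).

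Metabolic and growth genes shifted by less than 1 in most cases. SLC16A3, the lactate exporter MCT4, went from 5.21 to 106 FPKM (4.11), LDHA from 76.3 to 202 (1.39) and the glucose transporter SLC2A1 from 63.3 to 129 (1.02), the only 3 of 20 glycolysis genes compared that rose. Of 28 respiratory chain and ATP synthase genes none passed the size of 1 and 27 lay below 0 (median -0.46), which all 28 did after rescaling to the same sum (median -0.75). Of 31 cell cycle genes compared 25 lay below 0 (median -0.32), and CDKN1C, an inhibitor of cyclin-dependent kinases, rose. Of 31 ribosomal protein genes 27 lay above 0 on FPKM as deposited (median 0.16), but after rescaling 9 did and the median was -0.14. The same flip held for cholesterol synthesis, with 15 of 16 above 0 as deposited and 5 after rescaling, so no direction is given for either. The median of 16 reference genes was -0.03 as deposited and -0.32 after rescaling. Among 19 p53 targets 3 rose and 2 fell, against 6.84% and 4.33% of all genes compared. PERP went from 9.64 to 24.96 and PHLDA3 from 13.9 to 5.33.

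The soft gel shows which of these changes recur without the stiff substrate. On 400 Pa 15153 genes were compared, and 1479 rose (9.76%) and 933 fell (6.16%). Of the 1019 genes that rose on 60 kPa 533 also rose on 400 Pa, which is 52.3% of the first list and 36.04% of the second. Of the 645 that fell, 331 also fell there, 51.3% and 35.5% of the lists. For coding genes these shares of the stiff lists were 61.8% and 55.6%. Over 10543 coding genes compared on both gels the correlation of the changes was 0.68 (Pearson) and 0.65 (Spearman), given as a description across genes. The gels share each day's table, but no library.

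Over all 14893 genes compared on 60 kPa, 7456 (50.1%) had the higher change on that gel. Among 13 lateral mesoderm genes compared on 60 kPa, 4 had the higher change on 60 kPa; of the 29 listed, 18 rose on the soft gel. Of 21 neuroectoderm genes 16 had the higher change on 60 kPa, and on 400 Pa 7 rose and 3 fell. LHX5 was at 2.42 and 4.12 FPKM on 400 Pa, SOX21, a SOX factor of neural progenitors, went from 14.0 to 7.35 there and from 8.57 to 30.1 on 60 kPa, and FEZF1 went from 36.4 to 15.8. PAX6 rose on both gels, from 0.597 to 17.2 FPKM on 400 Pa. Pluripotency genes had the higher change on 60 kPa, which for most means a smaller fall, in 19 of 26 cases. SOX2 went from 114 to 54.0 FPKM on 400 Pa and LIN28A from 304 to 131. Of 32 actin genes 6 had the higher change on 60 kPa.

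These differences were tested from the gel ratios in the authors' tables, which needs no scale between the days. Of 13985 genes with a finite ratio on both days 11 differed in their induction between gels at an adjusted p below 0.05 (0.0787%; two-sided normal approximation with Benjamini-Hochberg adjustment), and 131 had an unadjusted p below 0.05. HESX1 was among them: computed from the ratios the authors deposited, its induction was higher on 60 kPa by 4.28 log2 units (SE 0.91, adjusted p = 0.00577). VIM was lower there (difference -2.51, SE 0.52, adjusted p = 0.00366, from the ratios the authors deposited), having gone from 139 to 552 FPKM on 400 Pa. ANXA1, an annexin that binds membranes with calcium, went from 25.4 to 10.6 FPKM on 60 kPa and from 12.7 to 46.8 on 400 Pa (difference -3.13, SE 0.69, adjusted p = 0.0093, from the ratios the authors deposited). None passed among the genes that could be tested of the pluripotency (25 of 26), primitive streak (4 of 17), lateral mesoderm (8 of 13), amnion and trophoblast (8 of 14), BMP target (8 of 15) and actin (31 of 32) lists. Of 21 neuroectoderm genes 14 could be tested, 6 had an unadjusted p below 0.05, and HESX1 passed the adjustment. HAND1, T, MIXL1 and PAX6 could not be tested, since the deposited tables hold no test statistic for them on both days. The errors are wide, with a median of 1.21, and in simulation the test recovered 5% of differences of 2 and 37% of differences of 4, so a missing call does not show equal induction. At day 3.5 alone, the authors' deposited table has 168 of 14491 genes compared on 60 kPa (1.16%) at q below 0.05 between the gels. DLK1 is one of them, at 106 FPKM on 60 kPa and 37.6 on 400 Pa (q = 0.00783 in the authors' deposited table), while the difference of its induction missed the threshold (2.85, SE 1.61, unadjusted p = 0.0769). In the authors' deposited table, among lineage genes compared on 60 kPa, 7 of the 13 lateral mesoderm genes, 8 of the 14 amnion and trophoblast genes and 7 of the 15 BMP targets had a q below 0.05 at day 3.5, each of them higher on 400 Pa. These lists share members, so the counts overlap. TBX3 is counted in each of them, and ISL1 among both lateral mesoderm and amnion genes. BMP targets share HAND1 with lateral mesoderm and HEY1 with amnion and trophoblast. At day 3.5 HAND1 stood at 6.07 FPKM on 60 kPa and 53.8 on 400 Pa, TBX3 at 4.90 and 42.4 and MEIS1 at 7.75 and 62.4 (q = 0.00783 for each in the authors' deposited table). Of the 21 neuroectoderm genes 7 had such a q in the authors' deposited table, each higher on 60 kPa.

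**Figure D4:**
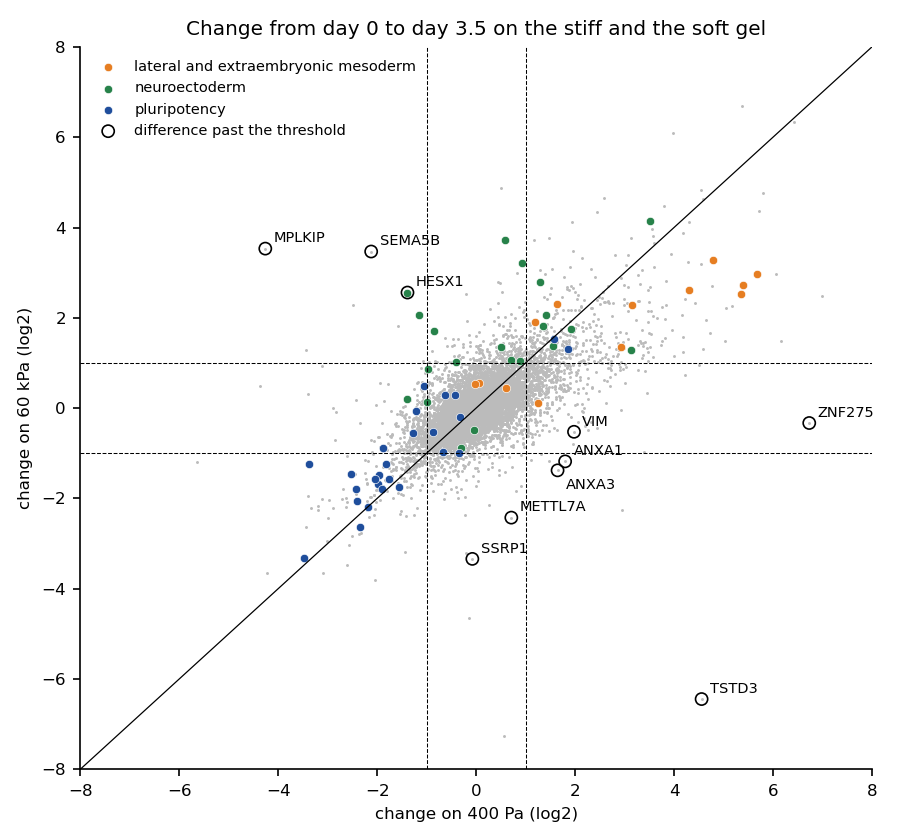
Change from day 0 to day 3.5 on 400 Pa (horizontal) and on 60 kPa (vertical), in log2 units, for coding genes compared on both gels and coloured list members compared on 60 kPa; black circles mark the coding genes whose induction differed between gels. Of the lateral mesoderm genes that rose on 60 kPa, IRX3 and IRX5 lie above the diagonal and the others to its right. Most neuroectoderm genes lie above the diagonal. Of the circled genes, HESX1, SEMA5B and MPLKIP moved up on 60 kPa and down on 400 Pa. TSTD3, VIM, ANXA1, ANXA3, METTL7A and ZNF275 moved down on 60 kPa and up on 400 Pa.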

How the data were processed

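RNA of the libraries was sequenced and summarised by the authors with Cufflinks on hg19, per the submitters' processing notes; not given in the sources used here: aligner, versions, annotation. The authors deposited 1 table per day with the FPKM of each gene and gel (33575 rows at day 0, 34690 at day 3.5), the log2 of the ratio between gels, the score of their test (a test statistic) and a p-value with its q-value. No values per library were used, so depth is unknown and no value carries an SD.

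Rows with 1 symbol were kept, and the row with the highest mean where a symbol had several; 1325 and 1358 rows that merge genes were left out. Genes with an FPKM of at least 1 on either day were compared with a pseudocount of 1. No test was run across days. The difference of induction between gels is the deposited log2 ratio at day 3.5 minus that at day 0. Its SE combines the ratio divided by the test statistic of each day, which is approximate, and p-values were adjusted by Benjamini-Hochberg; the step was tested on simulated data (0.029% of unchanged genes passed). The p-values rest on the error implied by the authors' test statistic, and how that error was modelled is not given in the sources used here. They are not a measured spread between the libraries of a group, which may itself be technical.

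Members and 42 gene lists with 872 genes were chosen with earlier results of these data known. Named genes are 11 fixed lineage genes, the 12 largest rises and falls at 10 FPKM or more, up to 4 rises, 4 falls and 3 highest members per list, and the 8 smallest p of the difference; other genes named were chosen after their values were seen. Some genes that this rule names are not reported here. Symbols were matched to GENCODE release 29 (81.9% of those compared) for gene type and small RNA genes. Promoters came from RefSeq (GRCh38.p14), and those on chromosome 8 were left out of the search. Of 10758 coding genes 8892 were matched to a promoter searched. Positions on hg19 came from the authors' rows. The strand setting is not given, so overlapping genes cannot be told apart. Alternatives were other pseudocounts, minimums, scalings, row choices and thresholds. Values were computed with pandas 2.3.3, scipy 1.17.1 and numpy 2.4.6 in Python 3.11.15 and drawn with matplotlib 3.10.9.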

Additional observations from a re-analysis of the deposited data

Results flagged for a closer look

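In all, 11 genes differed in their induction between the stiff and the soft gel by the test of the difference itself. SEMA5B, a semaphorin of axon guidance, went from 4.06 to 55.0 FPKM on 60 kPa and from 14.9 to 2.64 on 400 Pa (difference 6.25, SE 0.90, adjusted p = 1.52e-08 from the ratios the authors deposited). HESX1, which acts in the forebrain anlage, also moved in opposite directions (difference 4.28). The locus RP1-34H18.1 had a difference of 13.7 with an SE of 3.08, and MPLKIP, which holds a small RNA gene, one of 8.75. The other 7 had the lower change on 60 kPa. VIM had a difference of -2.51, ANXA1 of -3.13 and its family member ANXA3 of -3.12 (44.9 to 16.6 FPKM on 60 kPa, 25.6 to 82.2 on 400 Pa, adjusted p = 0.0348 from the ratios the authors deposited). METTL7A had a difference of -3.82, from 12.6 to 1.52 FPKM on 60 kPa and 8.33 to 14.3 on 400 Pa. ZNF275 had -7.89, with 295 FPKM in the soft group at day 3.5 and between 1.46 and 2.10 in the other 3 groups. SSRP1 had -3.28, with 642 FPKM in the stiff group at day 0 and between 62.4 and 69.3 in the others. TSTD3 had -11.6 and holds a small RNA gene. RP1-34H18.1, ANXA3 and METTL7A were named after their values were seen.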

How the results depend on the processing

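No paired analysis was possible because the tables hold 1 value per group, so the replicate numbers of the labels carry no values, and leaving out a library could not be run either. With a pseudocount of 0.1 the counts on 60 kPa were 1737 risen and 1022 fallen in place of 1019 and 645. A minimum of 5 FPKM left 572 risen, and a size of 2 left 211 and 109. Rescaling each group to the same sum gave 447 risen and a median change over all genes of -0.2296. Restricting to coding genes that hold no small RNA gene, an alternative added after seeing the data, gave 566 and 298. The share of risen genes also risen on 400 Pa was 58.6% with the minimum of 5 and 62.0% for those coding genes; for fallen genes it was 55.7% with the pseudocount of 0.1 and 62.5% with the minimum of 5. The count of genes whose induction differed between gels stayed between 8 and 12. No named gene or list median past the size of 1 reversed under any alternative run; rescaling took 28 of 236 named genes and 5 of 42 list medians below that size, and dropping the minimum of 1 FPKM took 7 list medians below it. The tables were made separately, hold no library values and give no depth, so no change between days has an error.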
